A study of Mus musculus with 16 samples.

Results

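Germinal centre B cells carrying the RH form of Crebbp on both alleles (Crebbp-RH/RH, called RH HOMO here) were set against germinal centre B cells carrying it on 1 allele (Crebbp-RH/WT, called RH HET). Of the 16 RNA-seq libraries in the series, 3 were RH HOMO and 4 were RH HET by their titles, and these 7 make up the comparison, which asks what a second RH allele adds to the first. RH stands for an arginine-to-histidine (R-to-H) change that the series title describes as a conditional knock-in specific to the germinal centre. The title and labels name no Cre driver, so the cells in which the allele was switched, and the share of sorted cells that carried it, are not known here. All mice had been injected with sheep red blood cells, a foreign antigen that sets off a T cell dependent response, and spleen cells stained as B220+, PNA+ and CD95+ were sorted. The protocol gives collection on day 12 and a sample tag gives day 10. Age and strain are not given for these groups. Nor is it stated that each library came from a separate mouse, so a p-value measures the spread between libraries. In the main fit that spread was estimated over all 16 libraries, so RH WT and knockout cohort libraries entered each SE and p. Beyond that, the 3 RH WT libraries (Crebbp-WT by genotype) are quoted for a few genes as a level only. RH WT 1 is titled as RH WT but carries a tag of the knockout cohort.

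CREBBP is a lysine acetyltransferase that, with its close relative EP300, adds acetyl groups to histones at enhancers and so keeps them active. In germinal centres, where B cells mutate their antibody genes and are selected by T cells, it works against BCL6, the repressor that recruits deacetylases to many of the same enhancers. Genes for antigen presentation and for B cell exit are among those known to depend on this balance. The R-to-H change known from lymphoma lies in the acetyltransferase domain and impairs the enzyme while the protein is still made, so that mutant and normal protein can be present together in a heterozygous cell.

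No gene of the 16606 tested passed an adjusted p of 0.05 in edgeR's quasi-likelihood test, 0 higher and 0 lower (0% each way), although 1889 had an unadjusted p under 0.05, and the smallest adjusted p was 0.105. Those 1889 genes were 11.4% of all, and 930 had higher levels in RH HOMO (5.6%) and 959 lower (5.78%). All 3 RH HOMO libraries lay above all 4 RH HET libraries for 627 genes (3.78%) and below them for 711 (4.28%). Other tools run on the same counts did make calls at an adjusted p of 0.05. DESeq2 called 36 genes higher and 96 lower, and limma-voom with library quality weights called 44 higher and 45 lower. DESeq2 and limma-voom shared 56 genes, 24 higher and 32 lower. A p above the threshold does not show that the genotypes had equal levels.

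Library depth was 41362856 to 69358602 counts. RH HOMO 2 stood apart from the other 6 libraries: on the first principal component of the 7 (29.2% of the variance) it lay at 77.4, and the rest lay between -31.4 and 16.6. Ribosomal protein genes took 8.69% of its counts against 4.99% to 6.64% in the others. Genes of short exonic length ran high in RH HOMO 2 and those of long exonic length ran low. Over 5 bins of protein-coding genes ordered by exonic length, its median log2 level against the mean of the RH HET libraries went from 0.39 in the shortest bin to -0.32 in the longest. RH HET 2 and RH HOMO 1 showed smaller slopes of the same direction, from 0.11 to -0.08 and from 0.10 to -0.03. RH HOMO 3 and RH HET 1, 3 and 4 ran the other way, RH HOMO 3 the most, from -0.07 to 0.06. Over 12469 protein-coding genes, which are not independent replicates, the log2 difference between genotypes and exonic length had a Spearman correlation of -0.30 with RH HOMO 2 and 0.005 without it. In 5 bins by GC content of the longest transcript, the median difference with RH HOMO 2 went from 0.04 (lowest bin) to 0.003 (highest). Without it, the median went from 0.07 to -0.08. Against the RH HET mean, RH HOMO 3 went from 0.11 to -0.09, RH HET 4 from 0.07 to -0.09 and RH HOMO 2 from -0.06 to 0.14. The part of GC content in the values below was not tested. Lists of genes below are given with and without RH HOMO 2. Xist counts placed RH HOMO 1, RH HOMO 3 and RH HET 4 as female and the other 4 as male. Neither genotype was of 1 sex, but RH HOMO 2 was the only male RH HOMO library. Values without it therefore set female RH HOMO libraries against RH HET libraries that were mostly male. In those values the effect of leaving out RH HOMO 2 and that of sex cannot be told apart. Replicates within each genotype differed beyond counting noise, where a chi-square divided by its degrees of freedom came to 16.4 for the closest pair and 205 for the farthest.

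**Figure D1:**
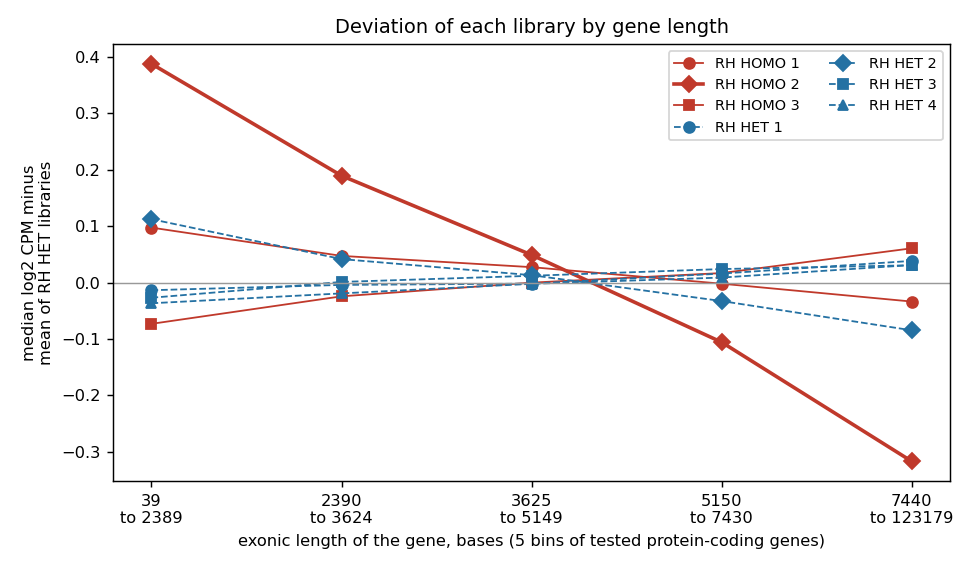
Median log2 CPM (counts scaled by library size) of each library minus the mean of the 4 RH HET libraries (vertical axis), for 5 bins of tested protein-coding genes by exonic length in bases (horizontal axis); red solid lines are RH HOMO and blue dashed lines RH HET. RH HOMO 2 falls from 0.39 to -0.32 along the axis, RH HET 2 from 0.11 to -0.08, and the other 5 libraries stay between -0.073 and 0.097.

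The sorted cells carried the germinal centre identity that their labels claim. All 11 defining genes, among them the B cell genes Ms4a1 and Cd79a, the sort marker Fas (CD95) and Bcl6, were above 1 CPM in every library, and their summed level was 6614 to 7780 CPM in RH HOMO and 7199 to 8005 CPM in RH HET. Bcl6 was 437, 358 and 484 CPM in RH HOMO 1 to 3 and 483, 397, 458 and 447 CPM in RH HET 1 to 4. Of 15 T cell genes 12 stayed under 1 CPM in all 7 libraries, and Cd3d and Cd3e reached at most 0.125 and 0.126 CPM. Of 11 neutrophil genes 5 were at 0 throughout, S100a8 among them. Macrophage and monocyte genes summed to 716 to 756 CPM in RH HOMO and 832 to 890 CPM in RH HET, so these ranges did not overlap. Of the 16 members tested 7 had higher values in RH HOMO and 9 lower. Ctsb was higher, at 106, 108 and 101 CPM against 99.2, 84.3, 95.3 and 86.7 CPM. Apoe, which made up much of the sum, was lower, with 294, 350 and 234 CPM against 405, 427, 385 and 336 CPM, while Lyz2 stayed between 0.366 and 3.81 CPM and C1qa at or under 2.05 CPM. Whether macrophage RNA has a part in any difference below was not tested. In RNA from sorted pools, fewer cells of a type and less RNA per cell cannot be told apart.

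Crebbp itself (chr16:4081328-4213997, minus strand, mm10) was read at 115.3, 68.6 and 126 CPM in RH HOMO and at 138, 124, 137 and 126 CPM in RH HET. RH HOMO 2 was the lowest of the 7, and RH HOMO 3 lay within the RH HET range. The log2 difference was -0.35 ± 0.16 (SE, adjusted p = 0.432 in edgeR) and -0.13 without RH HOMO 2. Counts per gene do not distinguish the RH from the normal allele, so they give no check of the genotype labels. Ep300 had the same shape, with 277, 130 and 328 CPM in RH HOMO and 343, 279, 329 and 319 CPM in RH HET. Its log2 difference of -0.38 became -0.08 without RH HOMO 2. Both genes are long, at 13540 (Crebbp) and 14273 (Ep300) exonic bases. The part of exonic length in their RH HOMO 2 levels was not tested. In the RH WT libraries Crebbp was 93.2, 91.3 and 122 CPM, below every RH HET value. Of the 51 genes tested whose start lies within 5 Mb of Crebbp, 27 had higher levels in RH HOMO, and their median difference of 0.02 was that of all genes. By unadjusted p under 0.05, 2 were higher (5.6% of all genes) and 5 lower (5.78%). Groups did not overlap for 1 higher (3.78% of all genes) and 5 lower (4.28%). Gm15539 (-0.97, at most 1.79 CPM) and Slx4 (-0.29), the members with the smallest p, were both lower without overlap. Without RH HOMO 2, 26 of the 51 were positive with a median of 0.01.

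The single-gene differences named next are the 10 genes in each direction with the smallest p whose genotypes did not overlap. The choice was among genes at a mean log2 CPM of at least 2, without antigen receptor segments, predicted models and pseudogenes. These 20 genes were chosen by this contrast, so their values describe it. Below that level, Eepd1 had a smaller unadjusted p in edgeR (9.55e-06) than Usp2, the smallest of the 20 (2.80e-05). All 20 were called by DESeq2 and 15 also by limma-voom, and none by edgeR on the 16 libraries with the count filter and no added term. With no count filter edgeR called 12 of them, with a term for sex it called Tspan31 and Cryz, and with a term for mitochondrial share Rdx and Tspan31. Fitted on the 7 libraries alone, edgeR called only Rdx of the 20. Adjusted p of the others in that fit ran from 0.363 (Ide) to 0.629 (C1d). At the edge of the choice, Fam92a entered with an unadjusted p of 0.000688 and Clstn1 missed with 0.000724. On the lower side Crb2 entered with 0.000153 and Cfap74 missed with 0.000155.

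Rdx (chr9:52047173-52088735, plus), which encodes radixin, a linker between the cell membrane and the actin cortex, was 40.5, 46.4 and 43.9 CPM in RH HOMO and 22.2, 25.2, 24.4 and 22.1 CPM in RH HET. The lowest RH HOMO library lay well above the highest RH HET library. The log2 difference was 0.89 ± 0.19 (SE, edgeR adjusted p = 0.118). It was 0.84 without RH HOMO 2, and edgeR on the 7 libraries alone called it, with an adjusted p of 0.044. RH WT levels were 25.9, 32.3 and 14.4 CPM, of which the first 2 lay above the RH HET range and the third below it.

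Ide (chr19:37268743-37337852, minus), the insulin-degrading metalloprotease, was 49.4, 36.2 and 38.8 CPM in RH HOMO and 25.1, 23.9, 24.1 and 26.2 CPM in RH HET. Its log2 difference was 0.74 ± 0.14 (SE, edgeR adjusted p = 0.105) and 0.82 without RH HOMO 2. The 4 RH HET libraries lay close together, and RH HOMO 1 was the highest of the 7. RH WT levels of Ide were 32.7, 33.6 and 27.6 CPM, above every RH HET library and below every RH HOMO library.

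Fcgr2b (chr1:170958617-170976547, minus), the inhibitory Fc receptor that dampens B cell receptor signals when immune complexes bind, was 260, 314 and 279 CPM in RH HOMO and 225, 219, 226 and 216 CPM in RH HET. RH WT libraries were lower again, at 167, 160 and 166 CPM, so the 3 genotypes formed separate bands, with or without RH WT 1. The step from RH HET to RH HOMO was 0.36 ± 0.07 on the log2 scale (SE, edgeR adjusted p = 0.108), and 0.28 without RH HOMO 2. Anxa5, a phosphatidylserine-binding annexin, was 8.69, 12.4 and 9.03 CPM against 6.26, 6.07, 6.91 and 5.84 CPM, a difference of 0.68. Rab29, a small GTPase of endosome and Golgi traffic, differed by 0.64, and C1d, a cofactor of the nuclear exosome, by 0.37. The tetraspanin gene Tspan31 differed by 0.61, with 19.2, 22.7 and 18.6 CPM against 11.9, 14.5, 13.5 and 13.0 CPM. Frrs1 (0.60), Hsd17b11 (0.78) and Fam92a (0.49) complete the higher set. Mean levels of Frrs1 were 7.09 CPM in RH HOMO, 4.69 CPM in RH HET and 7.09 CPM in RH WT. Without RH HOMO 2 the 10 differences lay between 0.28 and 0.84, all still positive.

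On the lower side, Usp2 (chr9:44067021-44095627, plus), a deubiquitinase with roles in the cell cycle and the circadian clock, was 11.2, 11.3 and 13.0 CPM in RH HOMO and 22.4, 21.6, 21.4 and 15.5 CPM in RH HET. RH HET 4 was the lowest of its group and the nearest to RH HOMO. The log2 difference was -0.77 ± 0.14 (SE, edgeR adjusted p = 0.105), and -0.75 without RH HOMO 2. Sh2d2a (chr3:87846755-87855722, plus), an SH2 adaptor best known in T cells, was 5.74, 4.96 and 4.81 CPM against 11.5, 11.5, 8.31 and 9.37 CPM, a difference of -0.98 ± 0.18 (SE, edgeR adjusted p = 0.105). Of 7 T cell markers tested 2 had higher values in RH HOMO and 5 lower, with a median of -0.14. The summed level of the T cell list was 114 to 133 CPM in RH HOMO and 126 to 174 CPM in RH HET. Most of it was Lck (102 to 160 CPM), while Cd3d and Cd3e were at or under 0.126 CPM, so the sum is mainly a level of Lck. Thy1, 1 of the higher markers, was 1.02, 1.87 and 1.08 CPM against 0.532, 0.440, 0.732 and 0.483 CPM. The part of T cell RNA in the Sh2d2a value was not tested.

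Otub2 (chr12:103388682-103406350, plus), another deubiquitinase, was 62.5, 50.6 and 56.9 CPM in RH HOMO, 81.6, 85.7, 79.4 and 80.6 CPM in RH HET and 108, 99.0 and 106 CPM in RH WT. The 3 genotypes again formed separate bands, with RH HOMO lowest and RH WT highest, with or without RH WT 1, and the RH HET to RH HOMO difference was -0.53 ± 0.11 (SE, edgeR adjusted p = 0.108). Sh2b2, an adaptor of growth factor and cytokine receptors, was 71.4, 52.3 and 69.7 CPM against 124, 105, 117 and 96.5 CPM, a difference of -0.78. Lrrc32, which encodes the GARP receptor that holds latent TGF-beta on the cell surface, was 11.4, 6.23 and 8.57 CPM against 17.0, 16.4, 16.7 and 18.3 CPM, a difference of -0.97. The other 5 were Kif9 (-0.84), Fgf11 (-0.70), Lrrc56 (-0.67), Cryz (-0.60) and Crb2 (-0.71). None changed sign without RH HOMO 2.

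**Figure D2:**
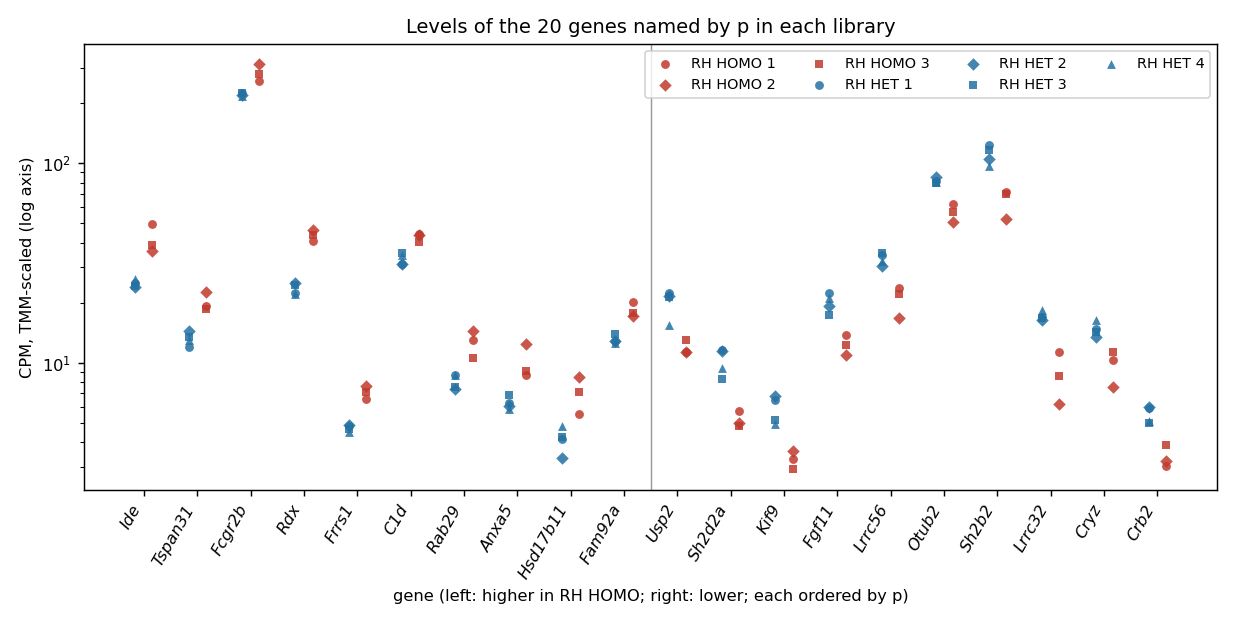
CPM of the 20 named genes on a log axis (vertical), 1 point a library, for the 3 RH HOMO (red) and 4 RH HET (blue) libraries; the first 10 genes are higher and the last 10 lower in RH HOMO, each set ordered by p. The genotypes do not overlap for any gene, which the choice required, and in Usp2 the RH HET 4 point at 15.5 CPM lies apart from its group.

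A few low-level genes were called in 4 or more of the other fits although their levels kept them out of that choice, and they were picked out after their values were seen. Tgfa, the EGF receptor ligand TGF-alpha, was 1.08, 0.790 and 1.12 CPM in RH HOMO and 2.70, 1.63, 3.89 and 3.19 CPM in RH HET, a log2 difference of -1.51 ± 0.28 (SE, edgeR adjusted p = 0.105). Eepd1, a nuclease of replication fork repair, was 1.73, 1.17 and 1.54 CPM against 2.99, 3.20, 3.75 and 4.37 CPM, a difference of -1.27. RH WT libraries had 6.21, 5.88 and 6.93 CPM of Eepd1, above every RH library. Dusp3, a dual specificity MAP kinase phosphatase, was 0.990, 2.53 and 1.12 CPM against 4.44, 2.99, 3.16 and 3.96 CPM. Its difference of -1.22 became -1.79 without RH HOMO 2, where edgeR called it.

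Class I antigen presentation, by which cells show peptides from their own proteins to CD8 T cells, had higher values in RH HOMO in 22 of 23 genes tested, with a median log2 difference of 0.24 against 0.02 over all genes. By unadjusted p under 0.05, 12 were higher (5.6% of all genes were) and 0 lower (5.78%). Groups did not overlap for 2 genes, both higher (3.78% of all genes). B2m, the light chain shared by all class I molecules, was 793, 1014 and 851 CPM in RH HOMO and 551, 513, 664 and 783 CPM in RH HET, so that RH HOMO 1 and RH HET 4 nearly met. Its log2 difference was 0.50 ± 0.13 (SE, edgeR adjusted p = 0.206), and 0.38 without RH HOMO 2. DESeq2 called B2m (adjusted p = 0.032) and limma-voom did not (adjusted p = 0.089). The immunoproteasome subunit Psmb9 was 161, 208 and 145 CPM against 127, 131, 145 and 144 CPM, and its difference of 0.33 became 0.16 without RH HOMO 2. The proteasome activators Psme1 and Psme2 differed by 0.42 and 0.43, and by 0.20 and 0.17 without that library. The heavy chain genes H2-D1 (0.24) and H2-K1 (0.27) also had unadjusted p under 0.05, but may share reads with near-identical H2 copies. Nlrc5, the class I transactivator, was 89.6, 87.5 and 104 CPM against 65.5, 65.0, 95.1 and 96.3 CPM, an overlap in which RH HET 3 and 4 sat with RH HOMO. Without RH HOMO 2, 21 members were positive and the median was lower, at 0.11, while over all genes 49.3% were positive with a median of -0.004.

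Interferon gamma response genes had higher values in 21 of 28, with a median of 0.14 (by unadjusted p 8 were higher against 5.6% of all genes and 0 lower against 5.78%, and 3 were higher without overlap against 3.78%). Without RH HOMO 2, 20 were positive and the median was 0.20. The list's level in single libraries, as the median over its members of log2 CPM against the RH HET mean, was 0.19, 0.27 and 0.27 in RH HOMO and -0.21, -0.24, 0.14 and 0.34 in RH HET. RH HET 4 was thus the highest of all 7 libraries, and the groups overlapped. Leaving out RH HET 1 brought the median to 0.06, and leaving out RH HET 4 brought it to 0.23. Irf1, a transcription factor at the head of this response, was 76.0, 109 and 84.6 CPM against 47.9, 41.4, 79.3 and 72.7 CPM. RH HET 3 lay within the RH HOMO range. Irgm1, an immunity-related GTPase, was 13.3, 17.3 and 16.6 CPM against 7.60, 9.54, 10.7 and 15.2 CPM, a difference of 0.55, and its relatives Igtp and Tgtp2 differed by 0.46 and 0.71. The guanylate-binding gene Gbp6 and the chemokine gene Cxcl10 had log2 differences of 1.66 and 1.65 at levels of at most 1.41 and 1.14 CPM.

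The promoters of 5 of these genes are shown for the interferon motifs that they hold, a sequence feature that played no part in choosing the genes of the lists. They are the 250 bases ahead of each RefSeq start on GRCm38.p6, the assembly of mm10, on the gene's own strand, with capitals marking either the core of an interferon-stimulated response element (GAAA, any 2 bases, GAAA) or that of a gamma-activated site (TTC, any 3 bases, GAA). B2m is chr2:122147437-122147686 (plus), Irf1 chr11:53769764-53770013 (plus), Irgm1 chr11:48871421-48871670 (minus), Igtp chr11:58199306-58199555 (plus) and Tgtp2 chr11:49064213-49064462 (minus). The 5 were picked after their values were seen, and for holding a motif.
B2m: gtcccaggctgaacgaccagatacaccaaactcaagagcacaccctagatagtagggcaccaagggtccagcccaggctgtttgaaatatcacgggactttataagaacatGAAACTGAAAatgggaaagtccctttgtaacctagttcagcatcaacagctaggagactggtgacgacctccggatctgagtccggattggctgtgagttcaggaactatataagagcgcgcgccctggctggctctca
Irf1: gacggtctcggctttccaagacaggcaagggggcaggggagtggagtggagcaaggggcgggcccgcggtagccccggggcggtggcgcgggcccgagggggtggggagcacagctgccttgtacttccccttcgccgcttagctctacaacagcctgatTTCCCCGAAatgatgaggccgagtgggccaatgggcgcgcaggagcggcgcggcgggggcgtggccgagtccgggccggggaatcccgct
Irgm1: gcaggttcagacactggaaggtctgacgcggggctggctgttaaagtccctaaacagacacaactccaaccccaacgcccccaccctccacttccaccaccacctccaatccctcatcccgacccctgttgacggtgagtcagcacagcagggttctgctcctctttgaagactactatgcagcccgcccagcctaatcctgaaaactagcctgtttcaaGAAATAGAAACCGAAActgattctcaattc
Igtp: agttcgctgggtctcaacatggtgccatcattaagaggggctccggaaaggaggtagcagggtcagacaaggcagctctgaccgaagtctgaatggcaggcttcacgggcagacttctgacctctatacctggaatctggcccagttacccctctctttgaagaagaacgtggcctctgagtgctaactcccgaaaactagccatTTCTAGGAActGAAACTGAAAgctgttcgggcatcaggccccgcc
Tgtp2: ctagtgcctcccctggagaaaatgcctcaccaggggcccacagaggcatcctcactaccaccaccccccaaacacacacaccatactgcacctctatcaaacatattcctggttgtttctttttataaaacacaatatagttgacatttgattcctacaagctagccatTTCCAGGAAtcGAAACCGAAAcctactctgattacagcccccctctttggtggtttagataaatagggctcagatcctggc
B2m has 1 response element that begins 139 bases ahead of the start, and Irf1 has 1 gamma-activated site 90 bases ahead. Irgm1 has 2 response elements that overlap by 4 bases, beginning 30 and 24 bases ahead. In Igtp and in Tgtp2 a gamma-activated site lies just upstream of a response element. Searched on both strands, the response element was found in 12 of the 22 promoters matched from the interferon gamma list (54.5%), in 3 of 20 from the class I list (15%), in 3.30% of the 10308 promoters of tested genes and in 2.98% of all 32851. The gamma-activated site was found in 9 of the 22 (40.9%) and in 7.02% of all promoters. The cAMP response element TGACGTCA, the site bound by the CREB factors for which CREBBP is named, was in 1 of the 22, in 0 of the 20, in 0 of 16 from the list of CREB factors and coactivators, in 3.04% of the promoters of tested genes and in 1.55% of all. A match is a stretch of letters and not a measured binding site.

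Type I interferon response genes were positive in 19 of 26 with a median of 0.28, which became 15 of 26 and 0.08 without RH HOMO 2. Their level in single libraries ran from -0.42 (RH HET 1) to 0.59 (RH HOMO 2), with RH HET 4 at 0.34 and RH HET 2 at 0.24, both above RH HOMO 1 and 3. Oas1a, a sensor of double-stranded RNA, was 6.52, 6.73 and 4.37 CPM against 1.94, 2.80, 2.22 and 5.65 CPM. RH HET 4 lay within the RH HOMO range of Oas1a.

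Class II presentation, by which B cells show antigen to helper T cells, had lower values in 10 of 14 genes, with a median of -0.08, and in 12 of 14 with a median of -0.09 without RH HOMO 2. By unadjusted p, 2 were higher (5.6% of all genes) and 1 lower (5.78%), the latter close to the background. The chain gene H2-Aa was 1543, 1532 and 1559 CPM in RH HOMO and 1756, 1396, 1766 and 1600 CPM in RH HET, so the RH HOMO values lay inside the RH HET range. Ciita, the class II transactivator, was 425, 334 and 507 CPM against 536, 463, 564 and 483 CPM, a difference of -0.28, and -0.14 without RH HOMO 2. H2-Ab1 and the invariant chain gene Cd74 differed by 0.02 and 0.08. The member with the smallest p was higher: Ifi30, a lysosomal thiol reductase that unfolds antigens and is itself interferon-inducible, was 196, 248 and 206 CPM against 169, 164, 177 and 171 CPM.

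**Figure D3:**
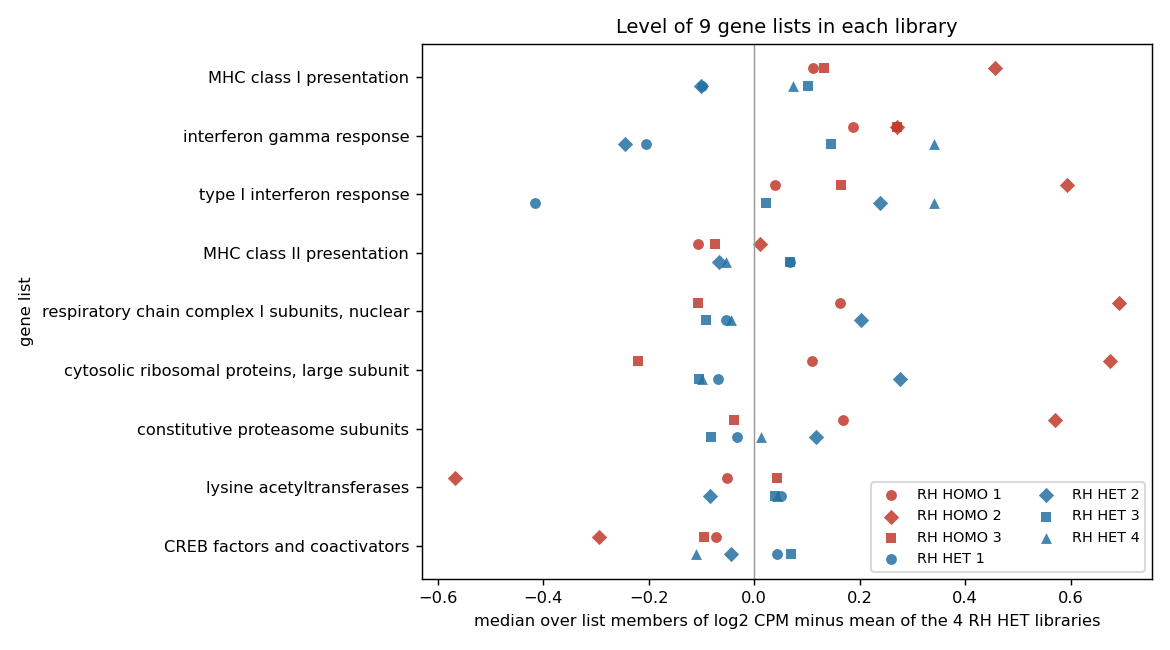
Level of 9 gene lists in each library, as the median over members of log2 CPM minus the mean of the 4 RH HET libraries (horizontal axis); red points are RH HOMO 1 to 3 and blue points RH HET 1 to 4. RH HOMO 2 lies far from the other libraries in complex I (0.69), ribosomal proteins (0.68) and acetyltransferases (-0.57), and RH HET 4 (0.34) is the highest library in the interferon gamma list.

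Genes of energy supply and protein turnover had higher values in RH HOMO as whole lists, and their medians were smaller or negative without RH HOMO 2. All 37 nuclear genes of respiratory chain complex I, the entry point of electrons from NADH, had positive differences with a median of 0.29, and 10 were higher at an unadjusted p under 0.05 (5.6% of all genes were). In single libraries the list stood at 0.16, 0.69 and -0.11 in RH HOMO and at -0.05, 0.20, -0.09 and -0.04 in RH HET. RH HOMO 3 was thus the lowest of all 7. Without RH HOMO 2, 26 of 37 were positive and the median was 0.04. Ndufa3, 1 of the 37, was 44.3, 69.9 and 34.7 CPM against 29.5, 42.2, 29.3 and 36.2 CPM. Complexes II to IV (23 of 25 positive, median 0.21) went to 14 of 25 and 0.02, and ATP synthase (15 of 15, 0.26) to 12 of 15 and 0.07. Cytosolic ribosomal proteins of the large subunit (46 of 46, 0.23) went to 7 of 46 and -0.05, and those of the small subunit (30 of 31, 0.25) to 6 of 31 and -0.04. No ribosomal protein gene was under an unadjusted p of 0.05. Constitutive proteasome subunits (31 of 31, 0.25, with 12 higher at an unadjusted p under 0.05 against 5.6% of all genes) went to 28 of 31 and 0.05. Median exonic lengths of these 6 lists were 1478 to 2808 bases, against 3429 over all genes tested. Without RH HOMO 3, the medians of the log2 differences of these 6 lists were 0.34 to 0.44. With a term for sex in the fit of all libraries they were 0.26 to 0.36. How much of each difference goes with exonic length in RH HOMO 2, or with sex, was not tested.

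Of the 13 mRNAs encoded in mitochondrial DNA, 7 were positive with a median of 0.07. Without RH HOMO 2, 1 of 13 was positive with a median of -0.07. In single libraries the list stood at -0.05, 0.37 and -0.09 in RH HOMO and at -0.21, 0.40, -0.07 and -0.14 in RH HET. Here RH HET 2 was as high as RH HOMO 2. The share of counts from mitochondrial genes was 4.59%, 5.28% and 4.32% in RH HOMO and 3.93%, 5.84%, 4.32% and 4.17% in RH HET. The mt-Atp6 difference of -4.05 rested on RH HET 2, at 56.5 CPM against 0.628 to 2.06 CPM in the other RH HET libraries, and it was -0.48 when that library was left out. Glycolysis (13 of 19, 0.08) and the tricarboxylic acid cycle (11 of 17, 0.07) lay closer to the median of all genes, and went to 11 of 19 (0.04) and 8 of 17 (-0.009) without RH HOMO 2. Pfkp, the platelet form of phosphofructokinase, was 144, 142 and 147 CPM in RH HOMO, 169, 179, 160 and 177 CPM in RH HET and 231, 198 and 179 CPM in RH WT.

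Chromatin regulators had negative medians as lists, and these too depended on which RH HOMO libraries were included. Lysine acetyltransferases were negative in 11 of 15 with a median of -0.09, and without RH HOMO 2 in 5 of 15 with a median of 0.01. BCL6 with its corepressors and deacetylases was negative in 14 of 18 (-0.09) and then in 9 of 18 (-0.01). Enzymes that write and erase H3K4 and H3K27 methylation were negative in 10 of 16 (-0.05) and then in 8 of 16 (0.01). SWI/SNF remodelling subunits were negative in 10 of 19 (-0.06) and then in 8 of 19 (0.02), with 3 higher (5.6% of all genes) and 3 lower (5.78%) by unadjusted p. Over all genes tested, 7871 of 16606 were negative, a share near that of the SWI/SNF list. Leaving out RH HOMO 3 moved the 4 medians the other way, to -0.23, -0.19, -0.18 and -0.14 in the order given. With a term for sex in the fit of all libraries they were -0.20, -0.13, -0.24 and -0.10. Members of these lists are mostly long. Their median exonic lengths were 8558, 6727.5, 7911.5 and 6949 bases in the same order, against 3429 over all genes tested. How much of each difference goes with exonic length in RH HOMO 2, or with sex, was not tested. Kmt2a, a methyltransferase of H3K4, was 586, 291 and 678 CPM against 759, 980, 846 and 769 CPM, a difference of -0.69 that became -0.41. Arid1a, a DNA-binding subunit of the SWI/SNF remodeller, was 409, 292 and 441 CPM against 506, 498, 498 and 463 CPM, and its difference went from -0.37 to -0.22. Neither had an adjusted p under 0.05 in edgeR's filtered fit or with DESeq2 or limma-voom, and Kmt2a was called by edgeR with no count filter. Actl6a, a small actin-related subunit of the same remodeller, had the opposite sign, with 113, 113 and 99.9 CPM against 96.4, 99.8, 90.3 and 94.8 CPM in RH HET.

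**Figure D4:**
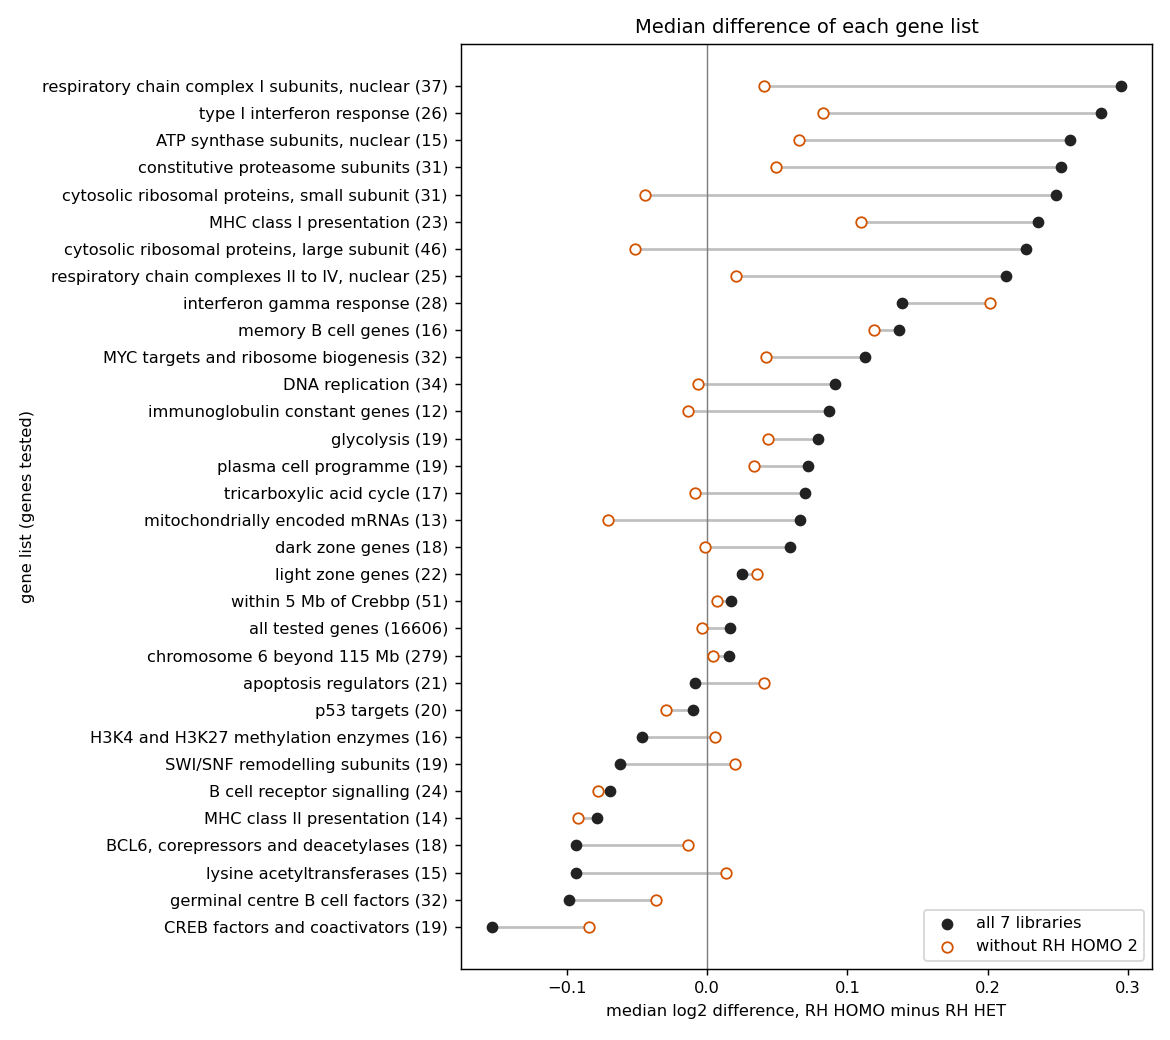
Median log2 difference, RH HOMO minus RH HET, of each gene list (horizontal axis; number of genes tested in parentheses), with all 7 libraries (filled) and without RH HOMO 2 (open). Complex I moves from 0.29 to 0.04 and large-subunit ribosomal proteins from 0.23 to -0.05, while the interferon gamma list goes from 0.14 to 0.20 and the class I list stays above 0 at 0.11.

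CREB factors, their coactivators and cAMP-responsive genes were negative in 15 of 19 with a median of -0.15, and in 13 of 19 with a median of -0.08 without RH HOMO 2. Groups did not overlap for 4 of them, all lower in RH HOMO (4.28% of all genes were). Per1 and Jun had the smallest p. Per1, a clock gene with cAMP response elements in its regulation, was 40.5, 33.3 and 44.5 CPM against 51.4, 47.6, 51.8 and 45.7 CPM, a difference of -0.32 ± 0.10 (SE, edgeR adjusted p = 0.336). Sik1, a kinase induced by cAMP that holds CREB coactivators in the cytoplasm, was 10.1, 10.4 and 10.5 CPM against 13.7, 12.2, 14.0 and 13.4 CPM. Pde4b, a phosphodiesterase that breaks down cAMP, was 62.4, 57.5 and 66.5 CPM against 78.2, 69.9, 82.0 and 74.0 CPM. Sik1 and Pde4b kept differences of -0.38 and -0.24 without RH HOMO 2. Both were picked out after their values were seen. Jun, an AP-1 subunit, had the opposite sign, with 5.55, 12.9 and 4.37 CPM against 2.91, 5.01, 3.48 and 2.37 CPM.

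Transcription and positioning factors of the germinal centre were lower in 23 of 32 (median -0.10), and in 18 of 32 (-0.04) without RH HOMO 2. By unadjusted p, 2 were higher and 2 lower, near the shares of all genes (5.6% and 5.78%). Gfi1 (chr5:107716657-107726036, minus), a transcriptional repressor, was 10.7, 8.20 and 10.6 CPM in RH HOMO, 4.996, 6.60, 5.63 and 5.51 CPM in RH HET and 3.41, 4.57 and 3.51 CPM in RH WT. Its difference between the RH genotypes was 0.79 ± 0.23 (SE, edgeR adjusted p = 0.279), and 0.90 without RH HOMO 2. DESeq2 did not call Gfi1 (adjusted p = 0.088) and limma-voom did (adjusted p = 0.038). Lmo2, a LIM-only cofactor, was 126, 123 and 126 CPM against 103, 97.3, 103 and 118 CPM. Rgs13, a brake on chemokine receptor signals, was 161, 76.3 and 136 CPM against 206, 177, 173 and 192 CPM, a difference of -0.59 that became -0.34. Dark zone genes (10 of 18 positive, median 0.06) and light zone genes (13 of 22, 0.02), which mark the dividing and the selecting compartments, had medians near that of all genes, and without RH HOMO 2 were positive in 9 of 18 (-0.001) and 15 of 22 (0.04).

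Memory B cell genes were positive in 10 of 16 with a median of 0.14, and in 10 of 16 with 0.12 without RH HOMO 2. Without RH HET 2 the median was -0.009. In single libraries the list stood at -0.47 in RH HET 2, and the other RH HET libraries (0.08 to 0.22) overlapped RH HOMO (0.13 to 0.22). By unadjusted p, 3 were higher (5.6% of all genes were) and 0 lower (5.78%). Gpr183 (chr14:121952551-121965195, minus), the receptor that guides B cells along oxysterol gradients to the outer follicle, was 19.3, 17.8 and 15.9 CPM in RH HOMO and 10.4, 6.71, 12.7 and 12.6 CPM in RH HET. Its difference was 0.74 ± 0.20 (SE, edgeR adjusted p = 0.248), and 0.72 without RH HOMO 2. DESeq2 did not call Gpr183 (adjusted p = 0.060) and limma-voom did (adjusted p = 0.034). Cd38, an ectoenzyme that mouse germinal centre B cells carry at lower levels than naive and memory cells, was 52.3, 64.4 and 58.3 CPM against 42.1, 29.4, 43.6 and 41.9 CPM. Gpr183 and Cd38 are also 2 of the 16 naive B cell markers, whose summed level overlapped between RH HOMO (1607 to 1801 CPM) and RH HET (1448 to 1859 CPM). The part of naive B cells in these values was not tested.

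B cell receptor signalling was lower in 15 of 24 genes (median -0.07), and in 18 of 24 (-0.08) without RH HOMO 2. Fcgr2b, described above, was its 1 member higher at an unadjusted p under 0.05 (5.6% of all genes were), and 3 were lower (5.78%). Cr2, a complement receptor of B cells, was 274, 204 and 296 CPM against 302, 321, 319 and 330 CPM, a difference of -0.30 that became -0.17. Immunoglobulin constant genes were positive in 9 of 12 (median 0.09), and in 5 of 12 (-0.01) without RH HOMO 2, while the members with the smallest p were lower. Of these, Ighg1 was 1094, 1105 and 1360 CPM against 1388, 1472, 1760 and 1527 CPM, a difference of -0.37 ± 0.12 (SE, edgeR adjusted p = 0.344). Ighg3 differed by -0.54, with RH HOMO 1 inside the RH HET range. Plasma cell genes (12 of 19, median 0.07), DNA replication (24 of 34, 0.09), MYC targets (26 of 32, 0.11), apoptosis regulators (10 of 21, -0.01) and p53 targets (9 of 20, -0.01) had medians within 0.10 of that of all genes. Without RH HOMO 2 these went to 10 of 19 (0.03), 16 of 34 (-0.006), 23 of 32 (0.04), 13 of 21 (0.04) and 9 of 20 (-0.03). Gadd45b, a stress-response gene on the p53 list, was 82.1, 80.3 and 64.5 CPM against 114.5, 114, 124 and 93.1 CPM, a difference of -0.56 ± 0.12 (SE, edgeR adjusted p = 0.118). It was -0.61 without RH HOMO 2. DESeq2 (adjusted p = 0.0021), limma-voom (adjusted p = 0.035) and edgeR with no count filter called Gadd45b.

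Genes that start on the distal part of chromosome 6 were positive in 145 of 279 with a median of 0.02, and in 144 with a median of 0.005 without RH HOMO 2. By unadjusted p, 16 were higher (the share over all genes was 5.6%) and 17 lower (5.78%), so their counts were close to the background. BC035044, a gene of that stretch, was 86.3, 87.8 and 68.5 CPM in RH HOMO and 60.1, 63.5, 54.9 and 59.8 CPM in RH HET. RH WT libraries had 80.8, 88.0 and 68.3 CPM of it, the range of RH HOMO. Its neighbour on the list by p, Etfbkmt, a mitochondrial lysine methyltransferase, was 5.001, 4.79 and 4.89 CPM against 3.15, 2.26, 3.18 and 2.85 CPM.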

How the data were processed

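Per the labels' protocols, TruSeq v2 libraries were prepared from total RNA of the sorted cells. The authors deposited raw counts for 48593 genes by symbol in 16 libraries. CASAVA 1.8, HISAT2 and featureCounts on mm10 are listed in the submitters' processing notes. Versions of the last 2 tools, and the strand setting, are not given in the sources at hand. The kit does not mark strand, so overlapping and antisense genes cannot be told apart, and near-identical copies may share reads.

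Groups were read from the titles, since several tags are shifted against their values. Positions and exonic lengths came from GENCODE M21 (16502 of the 16606 tested genes) and promoters from RefSeq on GRCm38.p6. Exonic length joins the exons of all transcripts of a gene, so it can exceed the length of any transcript.

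The counts were fitted with edgeR 4.0.16 (filterByExpr, TMM, quasi-likelihood, R 4.3.3) over all 16 libraries as 5 group means, which leaves 11 residual degrees of freedom, with Benjamini-Hochberg adjustment over all tested genes. The contrast was RH HOMO minus RH HET. Levels are TMM-scaled CPM, that is counts divided by the scaled library size. DESeq2 1.42.0, limma 3.58.1, other filters and scalings, the 7 libraries alone, each library left out, and terms for sex and mitochondrial share were alternatives. The fit was tested on simulated data. Named genes were Crebbp, Ep300, the 10 per direction with the smallest p at a mean log2 CPM of at least 2 whose groups did not overlap (without antigen receptor segments, predicted models and pseudogenes), and per list the 2 or 4 members whose p was smallest. Other list members in the text were picked after their values were seen, to show a known pathway gene. The members and lists were chosen with earlier results of these data known, so no list received a test.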

Additional observations from a re-analysis of the deposited data

Results flagged for a closer look

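In 145 values, levels of genes or lists on the log2 scale, a single RH HET library was tested for standing apart from the other 3. By Dixon's criterion (gap over range above 0.829) 11 values had such a library, where chance gives about 1 in 20. Of these, 9 came from RH HET 2. Its list levels, as the median over members of log2 CPM against the RH HET mean, were 0.20 for complex I, 0.276 for large-subunit and 0.239 for small-subunit ribosomal proteins, -0.083 for lysine acetyltransferases and -0.135 for apoptosis regulators. Its single genes were Cox7b at 121 CPM, Bax at 72.5 CPM and mt-Atp8 at 4.75 CPM, each the highest of the RH HET libraries, and Cd38 at 29.4 CPM, the lowest. RH HET 4 stood apart for Usp2, at 15.5 CPM. RH HET 1 stood apart for Cxcl12, at 0.369 CPM, a level of a few counts. RH HET 2 was also the library with the highest mitochondrial share of the 7, 5.84%, and the part of that share in its list levels was not tested.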

How the results depend on the processing

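The number of called genes depended on the fit. At an adjusted p of 0.05, higher and lower, it was 1 and 1 with the 7 libraries alone (Rdx and Gm9522), 11 and 52 with no count filter, 36 and 96 with DESeq2, 44 and 45 with limma-voom, 2 and 5 with a term for sex, 2 and 2 with a term for mitochondrial share, and 1 and 1 with the 7 libraries alone without RH HOMO 2, an alternative chosen after seeing the data. Leaving out a library gave 0 higher, and from 0 to 1 lower: Tgfa without RH HET 2, Dusp3 without RH HOMO 2 and Usp2 without RH HET 4. Genes at an unadjusted p under 0.05, higher and lower, were 514 and 572 with the 7 libraries alone, 590 and 627 with the 10 RH libraries, 1727 and 1573 with limma-voom, 1671 and 1529 with the term for sex, and 391 and 592 with the 7 libraries alone without RH HOMO 2. Leaving out a library gave 456 (without RH HOMO 2) to 1717 (without RH HOMO 3) higher and 689 (without RH HET 3) to 1835 (without RH HOMO 3) lower. Genes whose groups do not overlap then numbered 792 to 1910 higher and 948 to 1725 lower. Fewer libraries had to separate there, and the numbers also differed by the library left out. Without RH HOMO 1, 2 and 3 in turn, 1050, 1197 and 1910 were higher. The cause of these changes was not tested. Among genes named by rule, 7 values changed sign, all of genes at low levels. Leaving out a library gave log2 differences from -3.67 to 0.10 (without RH HET 2) for mt-Atp8, from -1.20 to 0.016 (without RH HET 2) for Csf3r, from -0.11 (without RH HOMO 2, in both fits) to 0.64 for Prf1, from -1.02 to 0.087 (without RH HET 1) for Cxcl12 and from -0.46 to 0.076 (without RH HET 1) for Klrb1c. Csf3r was also at 0.68 with limma-voom. Of list medians, 14 of 40 moved by more than their spread without RH HOMO 2 and 15 without RH HOMO 3. No paired analysis was possible because the titles carry no replicate numbers that the genotypes share.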
